A study of Mus musculus with 23 samples.

Results

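Blood cell precursors grow, survive and mature in response to a small set of growth factors, each of which acts through its own receptor. The transcripts of 9 such receptor genes were measured in the bone marrow (BM) of mice carrying changes at 1 tyrosine (Y665) of STAT5B, a transcription factor that these receptors activate. The genes are Csf2rb, Csf2rb2, Csf2ra, Il3ra, Epor, Csf3r, Csf1r, Kit and Flt3. They were taken by symbol from the 32285 genes of the count matrices. The series holds 23 samples, and the 6 single-cell expression libraries of BM are used here, 2 each from wild-type (WT), Y665H and Y665F mice at 2 months of age. The labels give the strain as C57BL/6, and by the methods of the study the edited lines were made in C57BL/6N. All groups were unperturbed apart from the edited Stat5b allele, and the BM labels do not give zygosity. Y665H was made by base editing of zygotes and Y665F by Cas9 with a donor oligonucleotide that also carried a silent change, so the 2 mutant lines differ from WT in how they were made as well. The comparison asks in which progenitors, and by how much, transcripts of these receptors differ between the genotypes.

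The receptors fall into 2 families. Csf2rb encodes the common beta chain that carries the signal of the receptors for interleukin 3 (IL-3), interleukin 5 and granulocyte-macrophage colony-stimulating factor (GM-CSF), and Csf2rb2 a second beta chain of the mouse that serves the IL-3 receptor. Csf2ra and Il3ra encode the ligand-binding alpha chains of the GM-CSF and IL-3 receptors. Epor binds erythropoietin, the hormone of red-cell formation, and Csf3r binds the granulocyte factor G-CSF. These 6 have no kinase of their own and signal through bound Janus kinases, chiefly JAK2, which phosphorylate STAT5. Csf1r (receptor of the macrophage factor M-CSF), Kit (receptor of stem cell factor) and Flt3 (receptor of Flt3 ligand) are tyrosine kinases themselves. Among the best known targets of STAT5 are the feedback inhibitors Cish and Socs2, which were measured alongside.

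The stretch just before the transcription start is shown for 4 of the receptors, as the place where a STAT5 site or the site of a lineage factor could lie. The promoter table of RefSeq (GRCm38.p6) held 8 starts of 7 of the 9 genes, each with 250 bases before the start and 50 after it. Both strands were searched for TTCNNNGAA (the STAT5 element), AGATAA (the element of the erythroid factor GATA1), GAGGAAGT (PU.1) and TTGCGCAA (C/EBP). The last 100 bases before the start are printed 5′ to 3′ on the strand of the gene, with motif matches in capitals. The starts are those of RefSeq and differ from the GENCODE gene spans given further on, so that the bases of Il3ra lie inside its span, those of Csf2ra overlap the end of its span and those of Epor begin beyond it. Epor and Csf2rb2 are shown because they held a match within these bases, and Csf2ra and Il3ra because their transcripts were lower in Y665F progenitors.
Csf2rb2 (chr15:78305722-78305821, minus strand): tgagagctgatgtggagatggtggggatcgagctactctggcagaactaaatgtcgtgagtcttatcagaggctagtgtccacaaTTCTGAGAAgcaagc
Epor (chr9:21963577-21963676, minus strand): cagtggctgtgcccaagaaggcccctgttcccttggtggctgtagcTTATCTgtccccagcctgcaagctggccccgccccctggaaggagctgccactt
Csf2ra (chr19:61228419-61228518, minus strand): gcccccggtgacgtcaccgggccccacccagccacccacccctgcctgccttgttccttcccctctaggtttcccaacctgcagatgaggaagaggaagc
Il3ra (chr14:14346395-14346494, plus strand): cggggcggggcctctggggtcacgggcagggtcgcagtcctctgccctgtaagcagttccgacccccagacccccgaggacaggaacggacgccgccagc
The STAT5 element was in 1 of the 8 windows, that of Csf2rb2, and in 8.3% of the 32851 windows of the table. The GATA1 element, on the opposite strand, was in 1, that of Epor, and in 11.2% of all. The PU.1 element occurred once, after the start of Csf2rb2, and in 3.2% of all windows, while the C/EBP element was in none of the 8 and in 0.183% of all. A match describes letters in these windows and says nothing of binding.

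The 6 libraries held between 4420 and 18742 barcodes with medians of 1617 to 2809 unique molecular identifiers (UMIs, each counting 1 captured transcript), and 66396 cells remained after filtering. In Y665F replicate 2 the lowest barcode held 1179 UMIs, against 500 in each other library. By Xist (at 699, 233 and 857 CPM, UMIs scaled to the library total, in replicate 1 of WT, Y665H and Y665F, and at most 0.59 CPM in replicate 2) and by Y-linked genes, replicate 1 of each genotype was female and replicate 2 male, while the methods of the study speak of tissue from male mice. Log2 ratios between the females and between the males are therefore given for the pairs that passed in Y665F against WT. Pairs of libraries shared between 64 and 334 barcodes, 0.975 to 1.25 times the number expected from their sizes.

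Cells were assigned to 16 classes by lists of marker genes averaged over neighbouring cells, and none of the 9 receptors was a marker or entered the neighbour search. Between 35.1% and 45.5% of the cells of a library had no leading class and were left out. In 10 classes every library had at least 30 cells, 37519 cells in all: stem cells and multipotent progenitors (HSC/MPP), lymphoid-primed progenitors, granulocyte-monocyte progenitors (GMP), monocyte, early erythroid, megakaryocyte, basophil/mast, B lineage, plasmacytoid dendritic and conventional dendritic cells. In these, 83 of 86 markers were higher inside the class than outside it by a set fold limit. The gate used these same markers, so this does not test the class names. Neutrophil, late erythroid, eosinophil, T/NK, macrophage and stromal classes had too few cells for a test. Between 5.21% and 40.9% of the cells of a tested class lay near its limit, so the classes are ranges along a continuum rather than sorted populations. UMIs were summed per library and class, since cells of 1 library are not replicates, and levels are given as CPM of that sum.

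Each receptor had its own order among the 10 tested classes, described here over all 6 libraries without a test. Levels are compared between classes of the same gene only. Epor was highest in early erythroid cells, with 38.1, 50.1 and 75.6 CPM as the lowest, median and highest library, and next highest in megakaryocyte cells (median 17.6 CPM, highest 26.7). Its early erythroid range did not overlap that of any other class. Flt3 was highest in lymphoid-primed cells (199, 233 and 381 CPM) and in plasmacytoid dendritic cells (156, 196 and 477 CPM), which overlapped, and lowest in early erythroid cells (median 6.17 CPM). Csf1r was highest in monocyte cells (36.5, 52.1 and 90.4 CPM), followed by plasmacytoid dendritic (median 29.2) and GMP cells (median 21.1). Csf3r had its highest level in HSC/MPP (25.3, 40.03 and 65.1 CPM) rather than in GMP (12.2, 19.4 and 35.4 CPM), with overlapping ranges. In the untested neutrophil class, whose 4 WT and Y665H libraries held 2 to 24 cells each, Csf3r stood at 73.6 and 49.9 CPM in Y665F, on 40 and 50 UMIs, above the same libraries' HSC/MPP values of 45.3 and 29.9 CPM.

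Kit was likewise highest in HSC/MPP (107, 165 and 274 CPM) and lowest in monocyte cells (median 37.1 CPM), and no class lacked it. Csf2rb (16.9, 61.4 and 144 CPM) and Csf2rb2 (4.35, 20.8 and 44.6 CPM) were highest in basophil/mast cells and lowest in early erythroid cells, with medians of 0.591 and 0 CPM. Il3ra was about as high in basophil/mast cells (37.2, 43.0 and 82.9 CPM, mean 51.9) as in conventional dendritic cells (20.2, 50.3 and 90.1 CPM, mean 49.8), and was higher in the first class in 3 of the 6 libraries. Csf2ra was highest in conventional dendritic cells (43.4, 83.1 and 168 CPM) and lowest in early erythroid cells (8.4, 11.6 and 15.8 CPM). Across the 9 genes, the ranges of 3 of 81 neighbouring classes in the order did not overlap: Epor in early erythroid against megakaryocyte cells, Flt3 in conventional dendritic against B lineage cells, and Csf2ra in B lineage against early erythroid cells. The plot of levels by class shows the same values for every library.

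**Figure D1:**
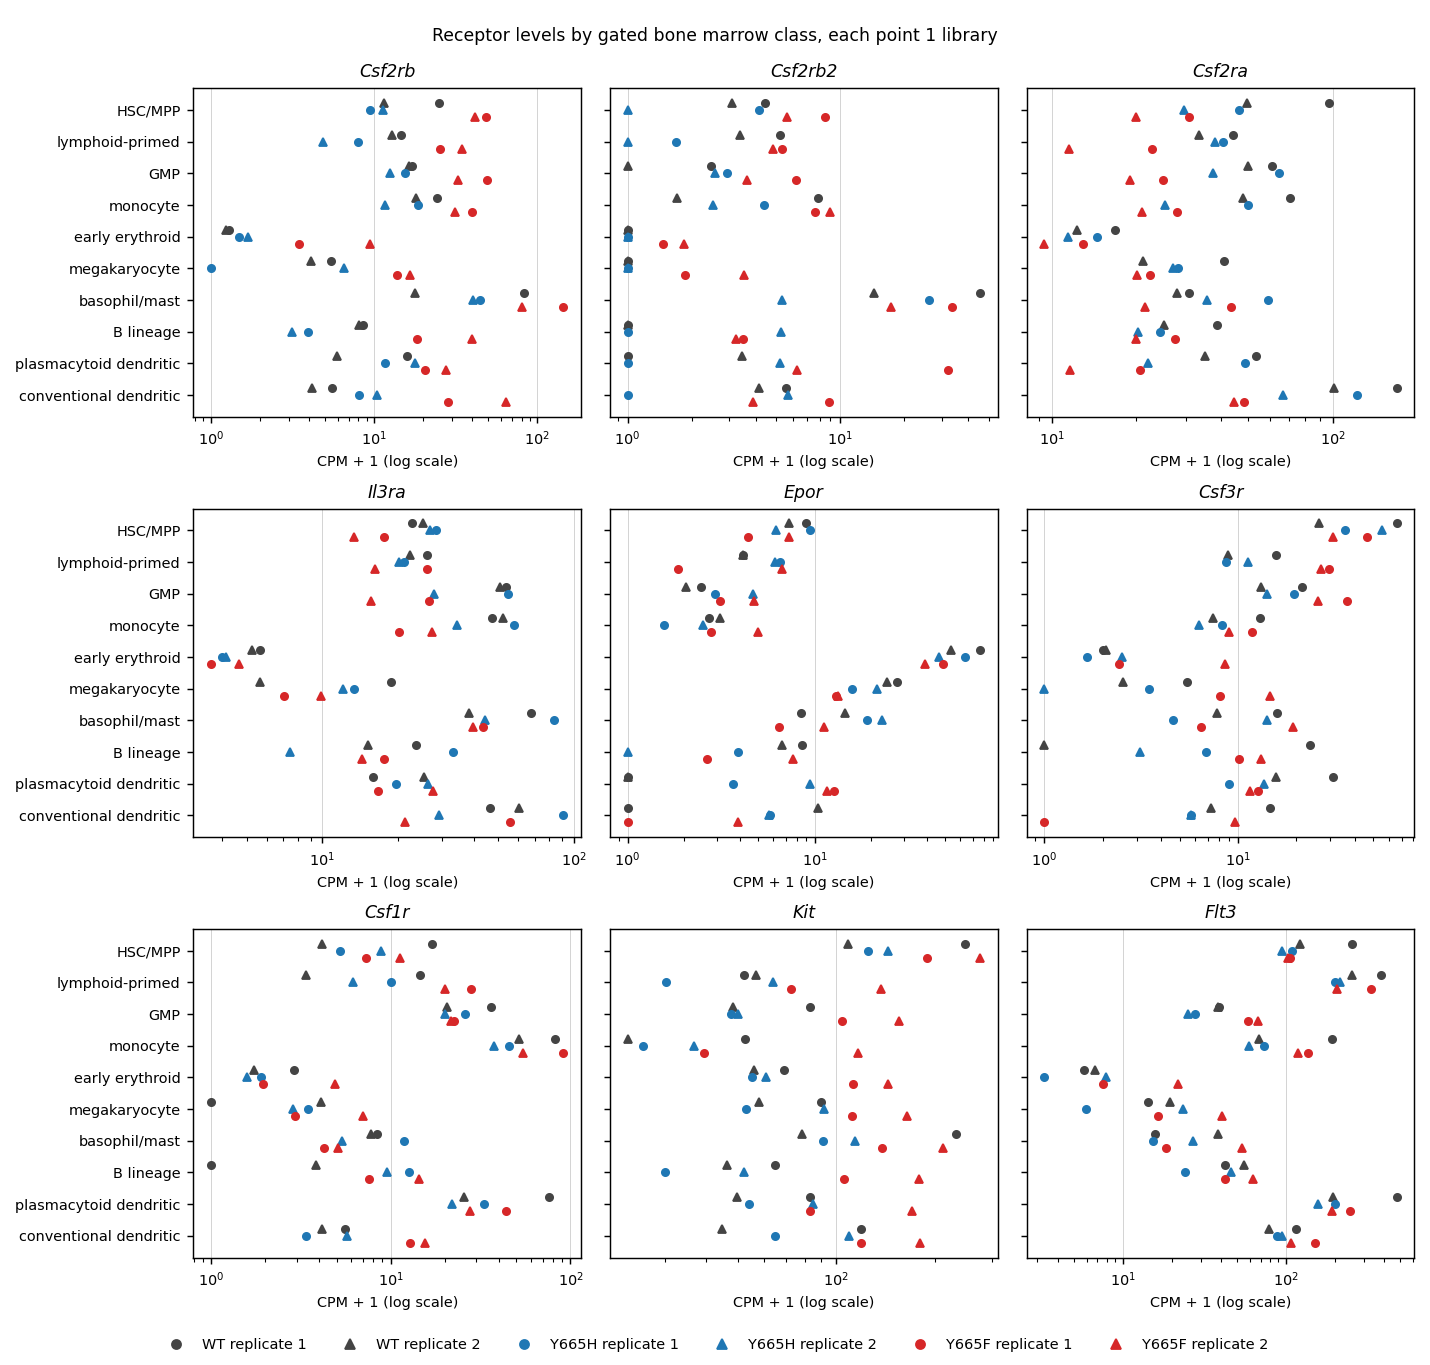
Level of each receptor gene (CPM + 1, log axis) in the 10 tested classes, 1 point per library, with colour for genotype and shape for replicate number. Epor stands apart in early erythroid cells, and Csf2rb is at or below 0.696 CPM there in the WT and Y665H libraries and at 2.48 and 8.4 in Y665F.

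The counts were then compared between genotypes within each class, with all 6 libraries in 1 edgeR model and p-values adjusted over all genes of the class. Of the 90 pairs of receptor and class, 57 passed the filter on low counts and were tested. Csf2rb2 passed it in no class. In Y665F against WT, 13 of the 57 pairs passed an adjusted p of 0.05, 6 higher and 7 lower, which is 22.8%, beside 10.2% of all genes tested over the 10 classes (4.17% higher and 6.01% lower). The share of all genes that passed was itself unequal, at 28.7% in early erythroid cells, 21.6% in GMP, 9.04% in lymphoid-primed, 6.4% in monocyte and 4.16% in conventional dendritic cells, the 5 classes that held the 13 pairs. Before adjustment, 31 of the 57 pairs (54.4%) had a p under 0.05, beside 25.5% of all genes (18742 of 73560 tests). The CPM values of the 2 Y665F libraries and the 2 WT libraries did not overlap in 31 pairs (54.4%), beside 52% of all genes tested. Of the 57 pairs tested, 9 met the low-count filter only because of the Y665F libraries, and so did 2 of the 13 that passed, both higher (Csf2rb in early erythroid and Csf1r in lymphoid-primed cells), so neither these counts nor the median support a direction. The median log2 fold change of the 57 pairs was 0.25, while the median of all genes lay between -0.02 and 0.03 in the 10 classes.

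In Y665H against WT, none of the 57 pairs passed (edgeR, and none with DESeq2), and neither did any other gene in the 10 classes (0%), which does not show that the levels were equal. Of the 57 pairs, 1 had an unadjusted p under 0.05, Flt3 in monocyte cells, beside 3.38% of all genes (2484 of 73560 tests). Log2 fold changes of the pairs lay between -1.34 and 1.15. Y665F against Y665H gave 17 of 57 pairs (29.8%), 13 higher and 4 lower, beside 16.4% of all genes. Of the 17 pairs, 2 met the low-count filter only because of the Y665F libraries (Csf2rb in early erythroid and Csf1r in lymphoid-primed cells). Both were higher, and no split of all genes by direction is given here, so these counts support no direction. By class, the share of all genes in that comparison was 35% in early erythroid, 34.7% in GMP and 18.7% in lymphoid-primed cells. It was 13.9% in monocyte and 3.83% in HSC/MPP cells. An unadjusted p under 0.05 was found for 32 of the 57 pairs, beside 32.5% of all genes (23915 of 73560 tests). Y665F and Y665H are each set against the same 2 WT libraries, and the 3 comparisons share samples in pairs.

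Library choice moved these counts. Without WT replicate 2, 5 pairs passed in Y665F against WT, and without Y665F replicate 2, 6 did. With the replicate number, which also separates the sexes, as a block, 22 pairs passed, the 13 and 9 more. These 9 were Csf2rb and Csf2ra in HSC/MPP, Csf2rb in lymphoid-primed cells, Csf3r in GMP and early erythroid cells, Kit in lymphoid-primed, monocyte and B lineage cells, and Flt3 in early erythroid cells (adjusted p 0.00646 to 0.0435 with the block). Csf3r in early erythroid cells was tested only because of its Y665F counts. Y665F against Y665H gave 4 pairs without Y665H replicate 1 and 10 without Y665F replicate 2. Of the 13 pairs, 11 lost their call without at least 1 library. None changed its direction in any alternative run.

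**Figure D2:**
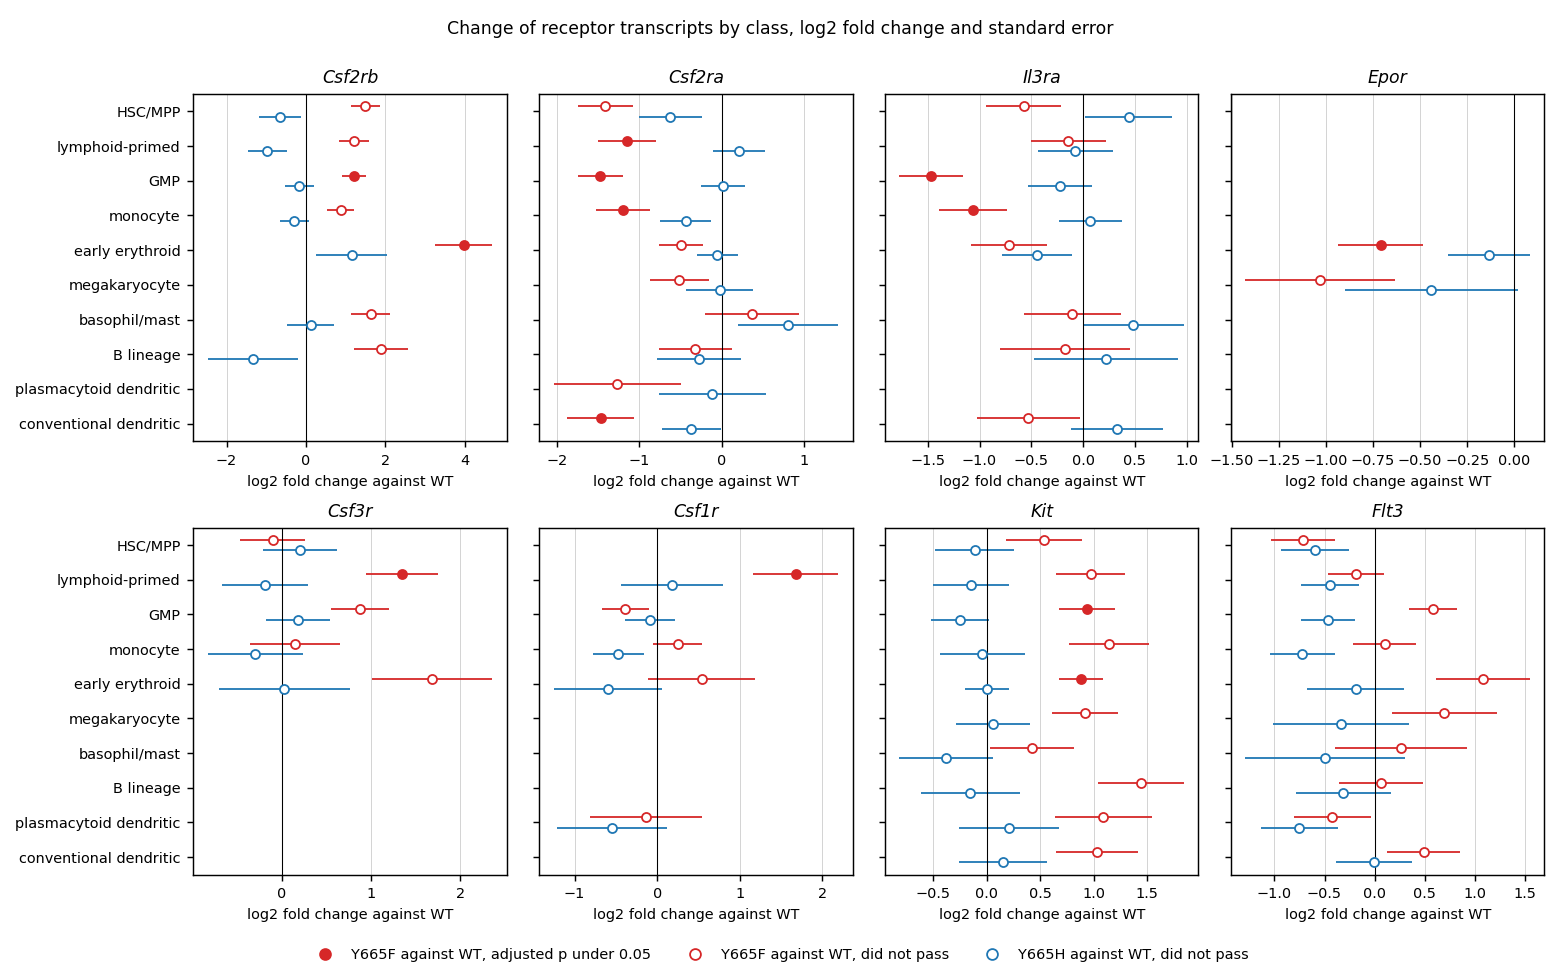
Log2 fold change with its standard error for each tested receptor and class, Y665F against WT in red and Y665H against WT in blue, with filled points where the adjusted p was under 0.05. Kit lies above 0 in every tested class in Y665F, as does Csf2rb, which was tested in early erythroid and B lineage cells through its Y665F counts alone. Il3ra lies below 0 in every tested class, in B lineage cells without a Y665F library at the filter limit. The classes share the same libraries, and no Y665H point is filled.

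The common beta chain was higher in Y665F in the 2 classes in which it passed, GMP and early erythroid cells. Csf2rb (ENSMUSG00000071713) lies on chromosome 15 of GRCm38 from 78325752 to 78353847 on the plus strand. In GMP it stood at 16.1 and 15.4 CPM in the WT libraries, at 14.5 and 11.6 in Y665H and at 48.2 and 31.6 in Y665F. Both Y665F libraries were above all 4 others, by a log2 fold change of 1.21 (SE 0.31, adjusted p 0.00795) against WT and of 1.38 (SE 0.28, adjusted p 0.000809) against Y665H. The log2 ratio to WT was 1.58 between females and 1.04 between males. The call against WT was lost without WT replicate 2 (log2 fold change 1.30, adjusted p 0.125) and without Y665F replicate 1 (0.81, adjusted p 0.0788), while that against Y665H was kept without any 1 library. With no filter on low counts the call against WT was also lost (1.25, adjusted p 0.0905).

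In early erythroid cells, Csf2rb was near the limit of detection outside Y665F, and it passed the filter on low counts through the Y665F libraries alone, so a tested value there had to be higher in Y665F and its call lends no support to the others. The WT libraries held 2 UMIs each (0.291 and 0.243 CPM) and the Y665H libraries 8 and 6 (0.485 and 0.696 CPM), whereas the Y665F libraries held 21 and 30 (2.48 and 8.4 CPM). Against WT it was higher by a log2 fold change of 3.97 (SE 0.72, adjusted p 0.00131), and the ratio of the pooled counts was 16.01 with an exact (Clopper-Pearson) 95% interval of 5.88 to 61.0, which covers counting error only. Between females the log2 ratio was 3.10 and between males 5.11. Against Y665H the log2 fold change was 2.83 (SE 0.58, adjusted p 0.00224), and that call was lost without Y665H replicate 1 (2.48, adjusted p 0.0524) and without Y665F replicate 2 (1.93, adjusted p 0.0539).

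The make-up of the early erythroid class moved with this result. Its own 10 markers summed to 7909 and 10927 CPM in WT, 10044 and 8475 in Y665H and 3466 and 1983 in Y665F. The 7 GMP markers summed there to 258 and 226 CPM in WT, 251 and 266 in Y665H and 379 and 742 in Y665F, and the 10 HSC/MPP markers to 131 and 121, 118 and 106, and 177 and 329 CPM. No erythroid marker was at 0 in any library, and at most 1 marker of the GMP and of the HSC/MPP list was. The 11 neutrophil markers summed to 5.81 and 4.87 CPM in WT, 16.1 and 6.73 in Y665H and 81.1 and 92.1 in Y665F, and the 10 megakaryocyte markers to 37.4 and 32.4, 29.1 and 30.05, and 56.3 and 189.5 CPM. Of the neutrophil markers 5 and 3 were at 0 in WT, 2 and 2 in Y665H, and 1 and 0 in Y665F. Over the whole libraries Csf2rb was also higher in Y665F, at 33.7 and 31.01 CPM against 8.05 and 5.64 in WT, and the part of free RNA in its early erythroid UMIs was not tested. Within the early erythroid class, Y665F replicate 2 had the highest Csf2rb, the lowest erythroid sum and the highest GMP sum. The part of these differences in the receptor changes of the class was not tested.

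Csf2rb also lay above WT in both Y665F libraries in HSC/MPP, lymphoid-primed and monocyte cells, where the comparison with WT did not pass and that with Y665H did. In HSC/MPP the values were 24.0 and 10.54 CPM in WT, 8.42 and 10.4 in Y665H, and 47.8 and 40.7 in Y665F, with a log2 fold change of 1.496 (SE 0.37, adjusted p 0.0633) against WT and of 2.15 (SE 0.45, adjusted p 0.02) against Y665H. The 11 neutrophil markers in the HSC/MPP class summed to 24.0 and 55.9 CPM in WT, 58.9 and 12.96 in Y665H and 237 and 195 in Y665F, the 10 megakaryocyte markers to 135 and 149.6, 88.4 and 127, and 177 and 457 CPM, and its own 10 markers to 2643 and 1923, 1782 and 1775, and 1613 and 1623 CPM. Of the neutrophil markers 5 and 3 were at 0 in WT, 3 and 9 in Y665H and 1 and 0 in Y665F. The part of these sums in the receptor values of the class was not tested. Lymphoid-primed cells had 13.6 and 11.8 CPM in WT, 6.94 and 3.85 in Y665H, and 24.3 and 33.3 in Y665F (against WT 1.21, SE 0.39, adjusted p 0.0503, and against Y665H 2.18, SE 0.44, adjusted p 0.0029). In monocyte cells it was 23.2 and 17.1 CPM in WT, 17.5 and 10.7 in Y665H, and 38.9 and 30.4 in Y665F. Its log2 fold change there was 0.87 (SE 0.34, adjusted p 0.117) against WT and 1.17 (SE 0.35, adjusted p 0.0252) against Y665H.

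The calls against Y665H differed in how far they rested on 1 library. That in lymphoid-primed cells was kept without any 1 library and under the other alternatives that gave a value, which DESeq2 and Leiden clusters did not. In HSC/MPP it was lost without Y665H replicate 1 (1.90, adjusted p 0.378) and without Y665H replicate 2 (2.27, adjusted p 0.0897). It was also lost with a stricter gate, which asks for a lead of 0.75 over the next class and 2 markers seen in the cell (2.08, adjusted p 0.082), with classes taken from Leiden clusters of the cells (0.96, adjusted p 0.653) and with the gate on a cell's own markers (1.84, adjusted p 0.0618). In monocyte cells it was lost without Y665H replicate 1, Y665H replicate 2, Y665F replicate 1 and Y665F replicate 2 (log2 fold changes 1.45, 0.90, 0.90 and 1.36, adjusted p 0.0982, 0.232, 0.214 and 0.084), with DESeq2 (1.15, adjusted p 0.106) and with the stricter gate (1.27, adjusted p 0.0574). In the class of its highest level, basophil/mast cells, Csf2rb stood at 81.7 and 16.9 CPM in WT, 43.2 and 39.2 in Y665H and 144 and 79.6 in Y665F, so the groups overlapped, and the log2 fold change of 1.63 (SE 0.49, adjusted p 0.0902) did not pass. The 7 eosinophil markers summed in that class to 89.2 and 23.6 CPM in WT, 25.2 and 30.5 in Y665H and 2661 and 1049 in Y665F, with 5 and 5, 3 and 5, and 2 and 3 of them at 0, and their part in these values was not tested. Of the 7 tested classes, early erythroid and B lineage cells met the low-count filter through the Y665F libraries alone, and in the other 5 the log2 fold change in Y665F against WT was between 0.87 and 1.63.

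The second beta chain, Csf2rb2 (ENSMUSG00000071714, chromosome 15, 78282507 to 78305721, minus strand), lies next to Csf2rb and was too low for a test in every class. In basophil/mast cells, its highest class, it stood at 44.6 and 13.5 CPM in WT, 25.2 and 4.35 in Y665H, and 32.6 and 16.3 in Y665F, which overlap, on counts of 1 to 30 UMIs. HSC/MPP had 3.43 and 2.11 CPM in WT, 3.16 and 0 in Y665H, and 7.51 and 4.62 in Y665F, on 3, 2, 3, 0, 62 and 34 UMIs. The ratio of pooled counts in Y665F over WT was 2.25 there, with an exact 95% interval of 0.929 to 7.07 that includes no difference. Over the 10 classes the Y665F and WT values of Csf2rb2 did not overlap in 6, with Y665F higher in each. Of all genes that passed the low-count filter, 52% did not overlap. All Csf2rb2 pairs were below that filter. Of the 31-base words of the Csf2rb2 transcripts, 30.1% also occurred in another gene, most often Csf2rb, and 19.6% of those of Csf2rb occurred elsewhere. Reads from shared stretches cannot be assigned to either gene. These shares count whole transcripts, while the libraries read 1 end of them, so how far the levels of both are affected was not measured.

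The alpha chains of the same receptors were lower in Y665F. Csf2ra (ENSMUSG00000059326, chromosome 19, 61223957 to 61228429, minus strand) passed in GMP, lymphoid-primed, monocyte and conventional dendritic cells, and Il3ra in GMP and monocyte cells. In GMP, Csf2ra stood at 59.9 and 48.9 CPM in WT, 63.2 and 36.4 in Y665H, and 23.8 and 17.9 in Y665F. Both Y665F libraries were below the other 4, by a log2 fold change of -1.48 (SE 0.28, adjusted p 0.000645) against WT and -1.49 (SE 0.26, adjusted p 0.00018) against Y665H. Both calls were kept without any 1 library, and that against WT was lost with no filter on low counts (-1.43, adjusted p 0.0622). The log2 ratio to WT was -1.33 between females and -1.45 between males. The upstream bases of Csf2ra printed above held none of the 4 elements.

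In conventional dendritic cells, the class of its highest level, Csf2ra was at 168 and 100.3 CPM in WT, 121 and 65.8 in Y665H, and 47.2 and 43.4 in Y665F. Its log2 fold change against WT was -1.47 (SE 0.40, adjusted p 0.023), with log2 ratios of -1.83 between females and -1.21 between males. It was lost without WT replicate 1 (-1.22, adjusted p 0.125), WT replicate 2 (-1.76, adjusted p 0.0656) or Y665F replicate 2 (-1.40, adjusted p 0.321), with the stricter gate (-1.38, adjusted p 0.0695), with at least 500 genes per cell (-1.39, adjusted p 0.0558) and with the gate on a cell's own markers (-1.38, adjusted p 0.0568). The 8 markers of that class summed to 22010 and 25709 CPM in WT, 23790 and 16492 in Y665H and 15979 and 5522 in Y665F, so the class itself moved with the genotype. The 11 neutrophil markers summed there to 22.7 and 25.1 CPM in WT, 59.3 and 9.41 in Y665H and 271 and 231 in Y665F, the 10 megakaryocyte markers to 36.4 and 84.6, 19.0 and 61.1, and 165 and 373 CPM, and the 10 HSC/MPP markers to 232 and 213, 206 and 239.8, and 358 and 532 CPM. The part of these sums in the lower Csf2ra was not tested.

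Monocyte cells had 69.6 and 47.0 CPM of Csf2ra in WT, 49.0 and 24.4 in Y665H, and 26.9 and 20.01 in Y665F, where Y665H replicate 2 lay between the 2 Y665F libraries. Against WT the log2 fold change was -1.20 (SE 0.33, adjusted p 0.0253), and against Y665H it was -0.76 (SE 0.33, adjusted p 0.121). The call against WT was lost without Y665F replicate 2 (-0.98, adjusted p 0.375), with DESeq2 (-1.20, adjusted p 0.0766), the stricter gate (-0.86, adjusted p 0.136), doublets kept (-1.08, adjusted p 0.0596) and the gate on a cell's own markers (-0.89, adjusted p 0.124). The log2 ratio to WT was -1.37 between females and -1.23 between males. Lymphoid-primed cells had 43.0 and 32.3 CPM in WT, 39.6 and 37.3 in Y665H, and 21.7 and 10.47 in Y665F, a log2 fold change of -1.15 (SE 0.35, adjusted p 0.0441) against WT and -1.35 (SE 0.35, adjusted p 0.013) against Y665H. Log2 ratios to WT were -0.99 between females and -1.63 between males. Leaving out a library ended the call against WT for WT replicate 1 (-1.04, adjusted p 0.103), WT replicate 2 (-1.27, adjusted p 0.0684) or Y665F replicate 2 (-0.72, adjusted p 0.436), and that against Y665H for Y665H replicate 1 (-1.39, adjusted p 0.0607) or Y665F replicate 2 (-0.93, adjusted p 0.169). With the stricter gate neither passed (-0.79, adjusted p 0.316, and -1.34, adjusted p 0.0636), and that against WT was also lost with DESeq2 (-1.15, adjusted p 0.139), doublets kept (-0.94, adjusted p 0.0823) and the gate on a cell's own markers (-0.99, adjusted p 0.101). In HSC/MPP the 2 Y665F libraries (29.8 and 18.9 CPM) were below the WT libraries (95.9 and 48.5 CPM) without passing (-1.42, SE 0.33, adjusted p 0.0562). The log2 fold change of Y665H against WT was also below 0 there (-0.62) without passing, and Y665F did not pass against Y665H. The fold change of Csf2ra in Y665F against WT was below 0 in 9 of the 10 classes, which share the same libraries. Among these, plasmacytoid dendritic cells met the low-count filter through 1 WT and 1 Y665H library and no Y665F library, so that class lends no support.

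Il3ra (ENSMUSG00000068758, chromosome 14, 14346275 to 14356011, plus strand) in GMP stood at 52.6 and 49.9 CPM in WT, 53.9 and 26.9 in Y665H, and 25.6 and 14.6 in Y665F. The log2 fold change was -1.47 (SE 0.31, adjusted p 0.00173) against WT and -1.24 (SE 0.29, adjusted p 0.0024) against Y665H, with log2 ratios to WT of -1.04 between females and -1.78 between males. Leaving out WT replicate 2 ended the call against WT (-1.39, adjusted p 0.0706), and leaving out Y665H replicate 1 that against Y665H (-0.70, adjusted p 0.196), and with no filter on low counts neither passed (-1.43, adjusted p 0.0971, and -1.24, adjusted p 0.0758). In monocyte cells it was 46.4 and 51.2 CPM in WT, 56.9 and 33.5 in Y665H, and 19.2 and 26.4 in Y665F, a log2 fold change of -1.07 (SE 0.33, adjusted p 0.0479) against WT and -1.13 (SE 0.33, adjusted p 0.0209) against Y665H. Log2 ratios to WT were -1.28 between females and -0.96 between males. That call against WT was lost without any of WT replicate 2, Y665H replicate 2, Y665F replicate 1 and Y665F replicate 2 (log2 fold changes -0.80, -1.08, -0.89 and -1.25, adjusted p 0.169, 0.0514, 0.216 and 0.2), and that against Y665H without Y665H replicate 1, Y665F replicate 1 or Y665F replicate 2 (-0.82, -0.97 and -1.33, adjusted p 0.298, 0.13 and 0.0932). Neither passed with DESeq2 (-1.07, adjusted p 0.132, and -1.15, adjusted p 0.0678) or the stricter gate (-1.01, adjusted p 0.122, and -1.03, adjusted p 0.0773), nor did that against WT with the gate on a cell's own markers (-1.13, adjusted p 0.0518).

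In basophil/mast cells, the class of its highest mean over the 6 libraries, the Il3ra values were 66.9 and 37.2 CPM in WT, 82.9 and 43.5 in Y665H, and 42.4 and 38.8 in Y665F. These overlapped, with a log2 fold change of -0.10 (SE 0.47, adjusted p 0.951). The fold change of Il3ra in Y665F against WT was below 0 in all 8 tested classes, from -1.47 to -0.10. In B lineage cells 1 WT and 1 Y665H library reached the low-count filter and no Y665F library did, so that class lends no support. The classes share the same libraries, so the count is not repeated evidence.

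Marker sums in GMP and monocyte cells also moved with Y665F. In the GMP class the 7 GMP markers summed to 18987 and 16190 CPM in WT, 20701 and 14312 in Y665H and 13184 and 8297 in Y665F. The 8 monocyte markers summed there to 811 and 864 CPM in WT, 926 and 808 in Y665H and 365 and 340 in Y665F, and the 10 HSC/MPP markers to 354 and 186, 213 and 178, and 449 and 560 CPM. In the monocyte class the 11 neutrophil markers summed to 25.8 and 12.8 CPM in WT, 26.5 and 15.2 in Y665H, and 266 and 587 in Y665F, and its own 8 markers to 2530 and 2060, 2147 and 1845, and 1724 and 1240 CPM. The 10 megakaryocyte markers summed in GMP to 36.6 and 23.9 CPM in WT, 28.1 and 36.9 in Y665H and 108 and 290.0 in Y665F, and in monocyte cells to 18.9 and 14.9, 21.4 and 18.3, and 55.7 and 236 CPM. The neutrophil sum was above both WT libraries in both Y665F libraries in each of the 10 tested classes. In B lineage cells it was 15.1 and 19.9 CPM in WT, 37.8 and 19.2 in Y665H, and 387 and 218 in Y665F. Whether these shifts, or free RNA, take part in the changes of Csf2ra, Il3ra, Csf2rb and Kit was not tested.

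**Figure D3:**
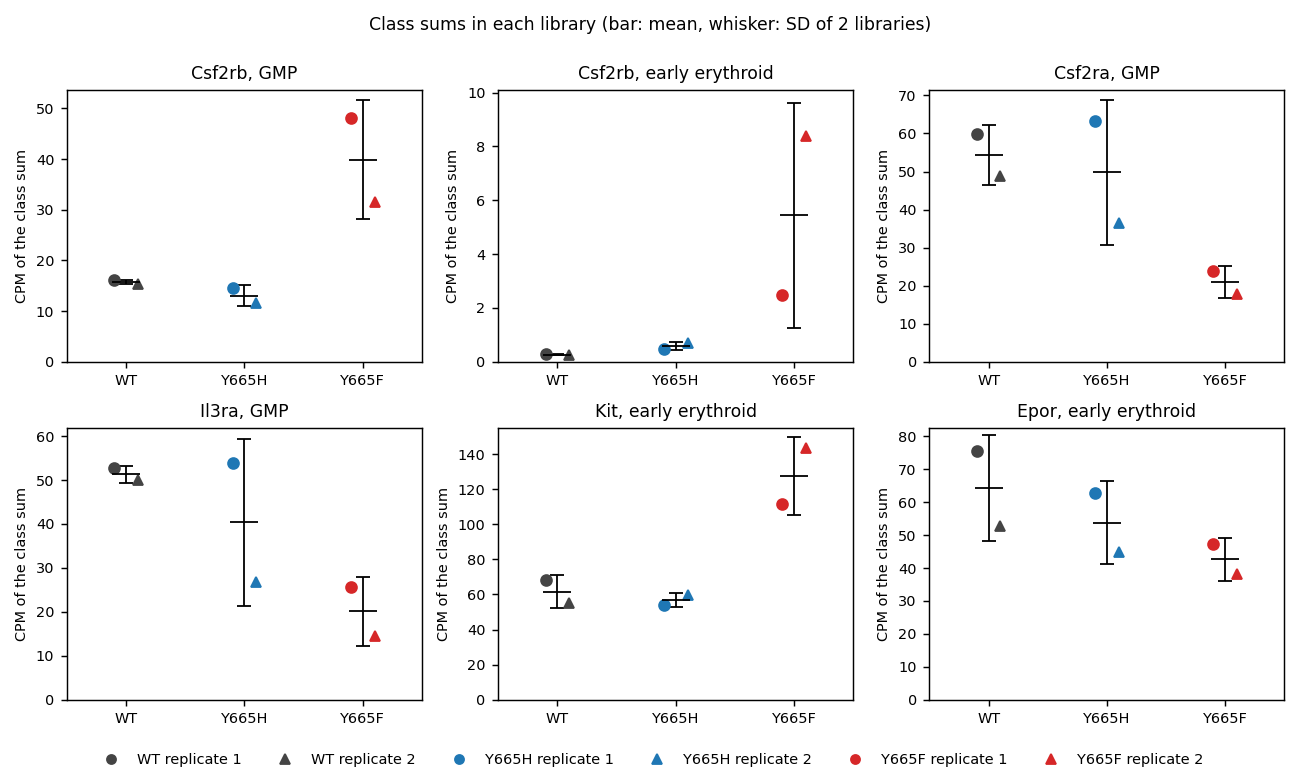
CPM of the class sum in each library for 6 pairs of receptor and class that passed in Y665F against WT, with the mean and SD of the 2 libraries. Csf2rb and Kit are above, and Csf2ra, Il3ra and Epor below, both WT libraries in both Y665F libraries. Csf2rb in early erythroid cells was tested through its Y665F counts alone. Below both WT libraries lie Y665H replicate 2 for Csf2ra, Il3ra and Epor, both Y665H libraries for Csf2rb in GMP, and, narrowly, Y665H replicate 1 for Kit.

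Epor fell in early erythroid cells, the class of its highest level, which held 28.8% of its UMIs in Y665F replicate 2 and 63.4% to 74.7% in the other libraries. The gene (ENSMUSG00000006235) lies on chromosome 9 from 21958897 to 21963506 on the minus strand, and its upstream bases with the GATA1 element are printed above. Early erythroid cells had 75.6 and 52.8 CPM in WT, 62.8 and 44.9 in Y665H, and 47.3 and 38.1 in Y665F. The log2 fold change was -0.71 (SE 0.23, adjusted p 0.0268) against WT and -0.57 (SE 0.22, adjusted p 0.0548) against Y665H. With the replicate block in the edgeR fit, the comparison with Y665H passed (adjusted p 0.0185). Within each genotype the male library was below the female one, and the log2 ratio to WT was -0.68 between females and -0.47 between males. The call was lost without WT replicate 1 (-0.51, adjusted p 0.169) or Y665F replicate 2 (-0.49, adjusted p 0.209). The sum of the erythroid markers given above was also lowest in the same libraries, at 3466 and 1983 CPM, and its part in this result was not tested. In megakaryocyte cells Epor was at 26.7 and 23.2 CPM in WT, 14.8 and 20.4 in Y665H, and 12.04 and 12.4 in Y665F, and its fold change of -1.03 (SE 0.40, adjusted p 0.0963) did not pass. Epor was tested in these 2 classes only.

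Csf3r, the receptor of the granulocyte factor, rose in lymphoid-primed cells, and the receptor of the macrophage factor was tested there through its Y665F counts. Csf3r (ENSMUSG00000028859, chromosome 4, 126024550 to 126044440, plus strand) stood there at 14.7 and 7.89 CPM in WT, 7.63 and 10.3 in Y665H, and 28.6 and 25.7 in Y665F. It was higher in both Y665F libraries than in the other 4, with a log2 fold change of 1.35 (SE 0.40, adjusted p 0.0389) against WT and 1.53 (SE 0.42, adjusted p 0.017) against Y665H, and log2 ratios to WT of 0.96 between females and 1.70 between males. The call against WT was lost without WT replicate 2 (1.01, adjusted p 0.242), Y665F replicate 1 (1.22, adjusted p 0.124) or Y665F replicate 2 (1.44, adjusted p 0.137), and that against Y665H without Y665H replicate 1 (1.20, adjusted p 0.227) or Y665F replicate 1 (1.40, adjusted p 0.0652). With the stricter gate neither passed (1.52, adjusted p 0.141, and 1.34, adjusted p 0.185), and with doublets kept that against WT did not (1.13, adjusted p 0.0791). In HSC/MPP, its highest class, Csf3r was at 65.1 and 25.3 CPM in WT, 34.7 and 54.4 in Y665H, and 45.3 and 29.9 in Y665F, a log2 fold change of -0.10 (SE 0.36, adjusted p 0.912). In GMP the change was 0.88 (SE 0.32, adjusted p 0.0522), at 20.5 and 12.2 CPM in WT against 35.4 and 24.8 in Y665F. Of the 31-base words of the Csf3r transcripts 23.1% also occurred in another annotated gene, and how far this affects its counts was not measured.

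Csf1r (ENSMUSG00000024621) in lymphoid-primed cells was at 13.6 and 2.37 CPM in WT, 9.02 and 5.14 in Y665H, and 26.9 and 19.0 in Y665F, on 13, 3, 13, 4, 31 and 20 UMIs. Outside Y665F, 1 library reached the 9.08 CPM of the low-count filter in this class, where 2 are needed, so the pair was tested because of the Y665F libraries and its calls lend no support to the others. The log2 fold change was 1.68 (SE 0.52, adjusted p 0.0444) against WT and 1.49 (SE 0.52, adjusted p 0.0456) against Y665H, with log2 ratios to WT of 0.98 between females and 3.01 between males. The call against WT, where WT replicate 2 held 3 UMIs, was lost without that library (0.88, adjusted p 0.358), Y665F replicate 1 (1.35, adjusted p 0.198) or Y665F replicate 2 (1.91, adjusted p 0.0667), and that against Y665H without Y665H replicate 1, Y665H replicate 2, Y665F replicate 1 or Y665F replicate 2 (1.95, 1.24, 1.18 and 1.73, adjusted p 0.12, 0.162, 0.228 and 0.0575). Neither passed with the stricter gate (1.38, adjusted p 0.227, and 1.56, adjusted p 0.174), nor did that against WT with the gate on a cell's own markers (0.88, adjusted p 0.287) or that against Y665H with at least 500 genes per cell (1.45, adjusted p 0.0520). In monocyte cells, where Csf1r was highest, it was at 80.8 and 50.5 CPM in WT, 44.5 and 36.5 in Y665H, and 90.4 and 53.6 in Y665F, and the log2 fold change of 0.25 (SE 0.30, adjusted p 0.665) did not pass. The 7 GMP markers in the lymphoid-primed class summed to 1103 and 868 CPM in WT, 926 and 989 in Y665H and 1338 and 1622 in Y665F. The 11 neutrophil markers summed there to 14.7 and 21.3 CPM in WT, 29.1 and 34.7 in Y665H and 196 and 190.4 in Y665F, with 7 and 2, 3 and 7, and 1 and 1 of them at 0. The 10 megakaryocyte markers summed to 55.6 and 42.6 CPM in WT, 36.1 and 41.1 in Y665H and 128 and 334 in Y665F. The part of these sums in the receptor changes of the class was not tested.

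Kit (ENSMUSG00000005672, chromosome 5, 75574916 to 75656722, plus strand), the stem cell factor receptor, rose in GMP and early erythroid cells of Y665F. Early erythroid cells had 68.5 and 54.9 CPM in WT, 54.2 and 59.9 in Y665H, and 112 and 143 in Y665F. The log2 fold change was 0.89 (SE 0.21, adjusted p 0.00549) against WT and 0.88 (SE 0.21, adjusted p 0.00448) against Y665H, with log2 ratios to WT of 0.71 between females and 1.38 between males. Leaving out WT replicate 2 (0.80, adjusted p 0.0594) or Y665H replicate 1 (0.76, adjusted p 0.0894) ended the respective call. In GMP, Kit was at 81.9 and 47.3 CPM in WT, 46.8 and 49.0 in Y665H, and 103 and 155 in Y665F, a log2 fold change of 0.94 (SE 0.26, adjusted p 0.0125) against WT and 1.19 (SE 0.25, adjusted p 0.001) against Y665H. The log2 ratio to WT was 0.33 between females and 1.71 between males, and the call against WT was lost without WT replicate 2 (0.62, adjusted p 0.297) or Y665F replicate 2 (0.71, adjusted p 0.114) and with no filter on low counts (0.99, adjusted p 0.0919). That against Y665H was lost without Y665H replicate 1 (1.09, adjusted p 0.0518). The HSC/MPP markers, of the class where Kit was highest, moved with it in GMP, as given above, and their part was not tested.

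Lymphoid-primed cells had 51.4 and 55.99 CPM of Kit in WT, 29.1 and 63.0 in Y665H, and 72.0 and 136 in Y665F, and monocyte cells 51.6 and 22.1 CPM in WT, 24.8 and 35.8 in Y665H, and 38.3 and 115 in Y665F. In the second class the Y665F and WT values overlapped, and the log2 ratio was -0.43 between females and 2.39 between males. Neither class passed against WT (0.97, SE 0.33, adjusted p 0.0607, and 1.14, SE 0.37, adjusted p 0.0615). Both passed against Y665H, with log2 fold changes of 1.12 (SE 0.34, adjusted p 0.0263) and 1.19 (SE 0.38, adjusted p 0.0337). These 2 calls were lost without Y665H replicate 1 (0.52, adjusted p 0.466, and 0.81, adjusted p 0.328) and without Y665F replicate 2 (0.61, adjusted p 0.326, and 0.26, adjusted p 0.808), with DESeq2 (1.05, adjusted p 0.0843, and 1.15, adjusted p 0.114) and with the stricter gate (1.27, adjusted p 0.0607, and 1.09, adjusted p 0.0676). The first was also lost with doublets kept (0.93, adjusted p 0.0628). In HSC/MPP, the highest class, Kit was at 247 and 107 CPM in WT, 124 and 143 in Y665H and 188 and 274 in Y665F (0.54, SE 0.36, adjusted p 0.47), so WT replicate 1 lay between the Y665F libraries. The fold change of Kit in Y665F against WT was above 0 in all 10 classes, from 0.42 to 1.44. Between females, however, Kit was lower in Y665F in HSC/MPP and in monocyte cells. The classes share the same libraries, and the share of all genes with 1 sign in every class was not counted.

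Flt3 (ENSMUSG00000042817, chromosome 5, 147330741 to 147400489, minus strand) passed in no class against WT and in 2 against Y665H. In GMP it stood at 38.0 and 37.2 CPM in WT, 26.8 and 24.2 in Y665H, and 57.5 and 66.7 in Y665F, so that Y665H was lowest and Y665F highest with no overlap. The log2 fold change was 0.58 (SE 0.24, adjusted p 0.0844) against WT and 1.05 (SE 0.23, adjusted p 0.00159) against Y665H, and the second call was kept without any 1 library and under every other alternative. Early erythroid cells had 4.8 and 5.72 CPM in WT, 2.3 and 6.84 in Y665H, and 6.62 and 20.7 in Y665F, a log2 fold change of 1.08 (SE 0.47, adjusted p 0.0922) against WT and 1.27 (SE 0.46, adjusted p 0.0427) against Y665H. The latter was lost without WT replicate 2 (1.24, adjusted p 0.0504), Y665H replicate 1 (0.56, adjusted p 0.427) or Y665F replicate 2 (0.42, adjusted p 0.545), and with DESeq2 (1.23, adjusted p 0.301). In lymphoid-primed cells, where it was highest, Flt3 was at 381 and 253 CPM in WT, 199 and 213 in Y665H and 329 and 204 in Y665F (-0.19, SE 0.28, adjusted p 0.719). The fold change in Y665H against WT was below 0 in all 10 classes, from -0.75 to -0.01, and passed in none. These classes share the same libraries, so the count is not repeated evidence.

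Whether a receptor changed to a different degree in different progenitors was tested for 3 pairs of classes, HSC/MPP with GMP, HSC/MPP with early erythroid cells, and GMP with early erythroid cells. In Y665F against WT, 3 of 26 tests passed, in 2 genes. The log2 fold change of Flt3 in HSC/MPP (-0.71) minus that in GMP (0.58) was -1.28 (SE 0.25, adjusted p 0.000332), and minus that in early erythroid cells (1.08) it was -1.78 (SE 0.34, adjusted p 5.25e-05). HSC/MPP had 254 and 121 CPM in WT, 108 and 93.3 in Y665H, and 104 and 102 in Y665F. Its own fold change against WT (-0.71, SE 0.32, adjusted p 0.268) did not pass. The third was Csf2rb, at 1.496 in HSC/MPP minus 3.97 in early erythroid cells (-2.44, SE 0.73, adjusted p 0.0464), where the WT libraries held 2 UMIs each and the early erythroid value is the one that was tested within its class through Y665F counts alone, so nothing is read from it. Of all genes, 1.63% passed for HSC/MPP with GMP, 1.81% for HSC/MPP with early erythroid and 0.571% for GMP with early erythroid cells. Both Flt3 differences were lost without WT replicate 1 (-0.94, adjusted p 0.0829, and -1.06, adjusted p 0.629) or Y665F replicate 2 (-1.13, adjusted p 0.106, and -0.94, adjusted p 1). Without WT replicate 1 that of Csf2rb was -1.87 (adjusted p 0.744), without WT replicate 2 -2.73 (adjusted p 0.118), without Y665H replicate 1 -2.42 (adjusted p 0.0582), without Y665H replicate 2 -2.39 (adjusted p 0.0737) and without Y665F replicate 2 -1.45 (adjusted p 1). It did not pass either with the replicate block (-2.43, adjusted p 0.0537), other size factors (-2.39, adjusted p 0.0584), no filter (-2.42, adjusted p 0.0658), the stricter gate (-2.76, adjusted p 0.255), doublets kept (-1.68, adjusted p 0.188) or at least 500 genes per cell (-2.43, adjusted p 0.0511). In Y665H against WT none of 24 tests passed, beside 0.00803% of all genes for HSC/MPP with early erythroid cells and 0% for the other pairs.

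Summed over all cells of a library, ungated ones included, the same genes gave values without a test. Such sums also move with the mix of cells, and fewer cells of a type and less RNA per cell cannot be told apart in them. Csf2rb stood at 8.05 and 5.64 CPM in WT, 4.7 and 5.95 in Y665H, and 33.7 and 31.01 in Y665F. Csf2rb2 was at 1.88 and 1.03 CPM in WT, 0.77 and 1.03 in Y665H, and 5.31 and 3.74 in Y665F, and Csf3r at 11.2 and 6.55, 6.11 and 8.42, and 23.3 and 21.2 CPM. These 3 and Kit (98.3 and 62.7 CPM in WT, 57.4 and 70.2 in Y665H, 139 and 198 in Y665F) were higher in both Y665F libraries than in the other 4. Epor was lower in both, at 45.2 and 28.2 CPM in WT, 40.5 and 24.8 in Y665H, and 13.9 and 11.6 in Y665F. In the remaining receptors Y665F overlapped the other libraries. Csf2ra was at 36.8 and 28.4 CPM in WT, 27.8 and 22.02 in Y665H, and 25.9 and 16.8 in Y665F. Il3ra stood at 18.1 and 19.2, 18.3 and 13.4, and 13.9 and 11.97 CPM. Csf1r stood at 14.998 and 7.99, 7.71 and 6.94, and 12.7 and 14.01 CPM. Flt3 stood at 87.5 and 60.7, 35.04 and 46.8, and 69.4 and 80.3 CPM. The share of all genes that lie apart in this way was not measured. HSC/MPP cells made up 10.7% and 6.00% of WT cells, 4.63% and 2.33% of Y665H cells, and 21.9% and 20.5% of Y665F cells. Early erythroid cells made up 18.4% and 19.1%, 27.7% and 23.9%, and 8.5% and 5.16%. The neutrophil class held 2 and 24 cells in the WT libraries, so these shares of the cells kept may not be those of whole marrow. The methods of the study do not say whether marrow cells were selected before loading.

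Other genes of the receptors' pathway were read from the same fits. The list held 35 genes: ligands, partner receptors, kinases, adapters, inhibitors and targets. Of 350 pairs of gene and class 186 were tested. In Y665F against WT 41 passed (22%), 40 higher and 1 lower, in 16 of 26 genes, and in Y665H against WT none did. The shares of all genes were 10.2% and 0%, as above. The ligand genes Csf2, Il3, Il5, Epo, Csf3, Il34, Kitl and Thpo were too low for a test in every class, and Csf1 and Flt3l, which were tested, passed in none. The median log2 fold change of the tested pairs was 0.65. Of the 186 pairs, 30 met the low-count filter only because of the Y665F libraries, so neither these counts nor the median support a direction.

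Among the inhibitors, Socs2, Cish, Socs3, Socs1 and Cbl had pairs that passed. Socs2, an inhibitor of STAT5 signalling, passed in 9 of 10 classes, but in 6 of them (GMP, monocyte, early erythroid, megakaryocyte, basophil/mast and plasmacytoid dendritic cells) it met the low-count filter only because of the Y665F libraries, and in HSC/MPP, lymphoid-primed and B lineage cells without them. In HSC/MPP it was at 8.0 and 20.02 CPM in WT, 5.26 and 12.96 in Y665H, and 222 and 145 in Y665F. In monocyte cells no UMI of it was seen in either WT library, while Y665F had 30.5 and 40.8 CPM, at least 29.9-fold higher than the 3 UMIs over both WT libraries that a count of 0 allows (adjusted p 2.97e-06). Cish, which blocks STAT5 docking at receptors, passed in 4 classes, in each of which it was tested only because of the Y665F libraries, and in GMP stood at 1.46 and 1.06 CPM in WT, 0.645 and 0.527 in Y665H, and 7.84 and 15.3 in Y665F, a ratio of pooled counts of 9.75 (exact 95% interval 3.26 to 47.9) on 3 WT UMIs. Socs3 in GMP gave a ratio of 8.62 (exact 95% interval 2.31 to 72.4) on 2 WT UMIs. It was at 0 and 1.06 CPM in WT, 1.94 and 3.69 in Y665H, and 7.84 and 5.50 in Y665F. Against Y665H its log2 fold change of 1.11 (SE 0.50, adjusted p 0.0851) did not pass. Of the 41 pathway pairs that passed, 15 met the filter only because of the Y665F libraries, among them also Socs3 in GMP, Id1 in early erythroid and Stat5b in megakaryocyte cells, and such a pair tends to be tested where it is higher in Y665F.

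Among kinases, transcription factors and adapters, Jak2, the kinase bound to the cytokine receptors, rose in GMP (log2 fold change 1.39, SE 0.40, adjusted p 0.0158), from 10.2 and 6.38 CPM in WT to 18.4 and 25.9 in Y665F. Stat5b, the edited gene, rose in megakaryocyte cells by 1.53 (SE 0.40, adjusted p 0.0197) and passed in 4 classes. In the others it met the low-count filter without the Y665F libraries. These were lymphoid-primed (1.02, SE 0.32, adjusted p 0.0454), GMP (0.95, SE 0.29, adjusted p 0.0233) and early erythroid cells (0.88, SE 0.21, adjusted p 0.00576). The adapter Gab2 rose in early erythroid cells by 1.76 (SE 0.35, adjusted p 0.00225). Pim1, a survival kinase induced by STAT5, rose in GMP by 1.86 (SE 0.33, adjusted p 0.000423), and the cytokine gene Osm in early erythroid cells by 1.46 (SE 0.41, adjusted p 0.0148). Id1, a regulator of helix-loop-helix factors, had a ratio of pooled counts of 10.9 in early erythroid cells (exact 95% interval 3.33 to 56.2) on 3 WT UMIs. The pair that passed lower was Ccnd3, a cyclin, in early erythroid cells. It was at 84.7 and 62.8 CPM in WT, 67.7 and 48.5 in Y665H, and 43.5 and 49.3 in Y665F, so Y665H replicate 2 lay between the 2 Y665F libraries. This pair was named after its value was seen because it was alone in its direction. The 9 genes chosen by the size of their change were checked in the class where it was largest among those that passed. Gab2 in early erythroid cells kept its call without any 1 library. So did Socs2 in monocyte cells, for which this says nothing of stability since its WT libraries were at 0. The other 7 lost theirs without WT replicate 2 (log2 fold changes 1.08 to 7.49 and adjusted p 0.0599 to 0.301), and 4 of them, Id1, Cish, Stat5b and Jak2, without Y665F replicate 2 as well. Those of Socs3 and Stat5b were also lost without WT replicate 1, and that of Socs3 without Y665F replicate 1. With no filter on low counts the calls of Cish, Socs3, Pim1 and Jak2 in GMP were lost (adjusted p 0.0620 to 0.114), and with the stricter gate those of Stat5b (adjusted p 0.112) and Osm (adjusted p 0.0607). That of Jak2 was also lost with DESeq2 (adjusted p 0.0681) and that of Stat5b with the gate on a cell's own markers (adjusted p 0.138). Without WT replicate 2, 21 of the 186 pairs passed, and without Y665F replicate 2, 24.

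**Figure D4:**
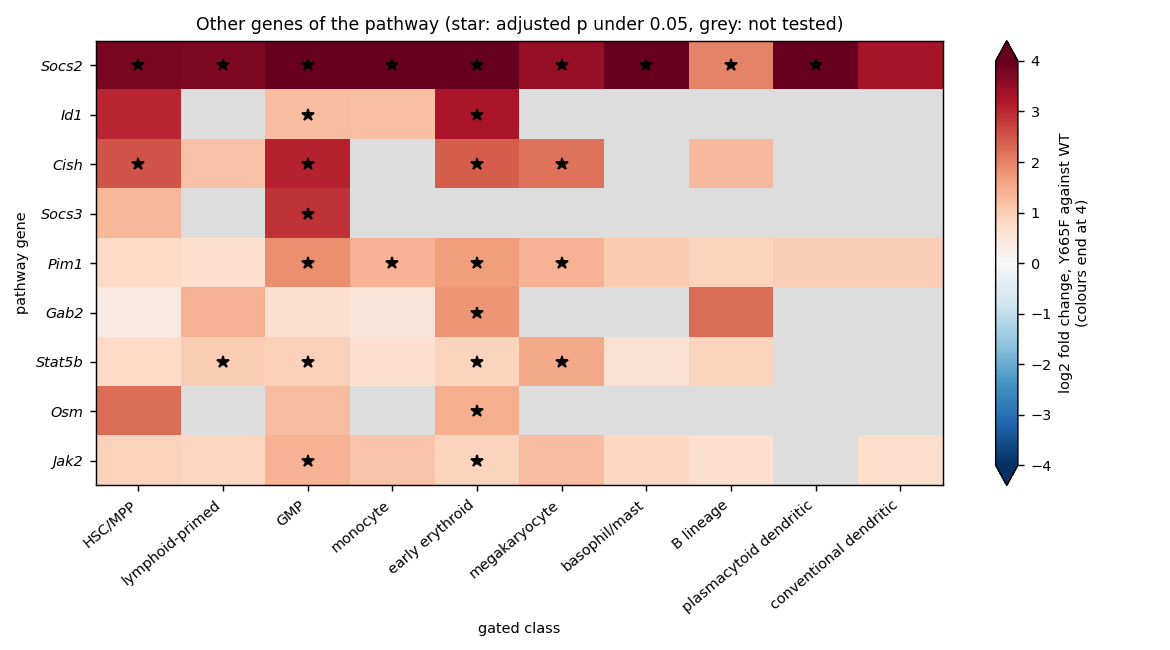
Log2 fold change in Y665F against WT (colour, ending at 4) of the 9 pathway genes named in the text by the size of their change, in the 10 classes, with stars where the adjusted p was under 0.05 and grey where a gene was not tested. Socs2 is starred in 9 classes, and most other stars lie in GMP and early erythroid cells, where 21.6% and 28.7% of all genes passed. Socs2 in 6 of its 9 starred classes, and Cish in all 4 of its own, met the low-count filter only because of the Y665F libraries.

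The genes whose levels followed each receptor most closely over the classes were found by the correlation of log2(CPM + 1), averaged over the 6 libraries, across 10 classes and over 11289 genes (11290 for Csf2rb2). The points share libraries and depth, and no p is given. For Epor these were Abhd16a (r = 0.969) and Gata1 (0.961), a gene of an erythroid transcription factor. Csf2ra was followed by Nfam1 (0.973), Hpcal1 (0.965) and Fgl2 (0.959), Il3ra by Kctd20 (0.970), Fes (0.962) and Ube2w (0.953), and Csf2rb by Hsd17b11 (0.946), I730030J21Rik (0.934) and Lamp2 (0.934). For Csf2rb2 the genes were Lmo4 (0.940), Klhl18 (0.940) and P2rx4 (0.935). Csf1r went with Colgalt1 (0.973), Gria3 (0.971) and Ctsa (0.969), Csf3r with Bpifc (0.975), Fam102a (0.944) and B4galt6 (0.939), Flt3 with Pde7a (0.972), Wfdc17 (0.968) and Rnf13 (0.956), and Kit, the least matched, with 2900097C17Rik (0.910), Zbtb4 (0.8999) and Zfp655 (0.890). None of these genes was a marker of a class.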

How the data were processed

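Single-cell RNA libraries of BM were compared between WT, Y665H and Y665F (n = 2 each). The deposited files hold raw UMI counts per gene and barcode, made by the authors in Cell Ranger (6.0.0 per the file headers, 5.0 per the labels) against mm10. The labels name a 3′ kit and the methods of the study a 5′ kit. Barcodes needed 200 genes or more and a mitochondrial share of 10% or less, and the top-scoring simulated-doublet matches were removed, at an expected 0.8% per 1000 barcodes (3.54% to 15.0% per library). The study states no such limits.

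Cells were joined in 1 embedding (scanpy 1.11.5, 2000 variable genes, 30 components, 20 neighbours), and each took the class with the highest neighbour-averaged marker score, if it was over 0.5, led by 0.25 and at least 1 marker was seen. These limits were set after the sizes of the classes were seen. Counts of a class were summed per library, and genotypes were compared by the quasi-likelihood method (edgeR 4.0.16, R 4.3.3, TMM, filterByExpr, Benjamini-Hochberg over 4087 to 10701 genes per class). Class differences were tested with the library as a block. Log2 fold changes are those of the fit, and each SE is its absolute value over the root of the F statistic. The labels do not say how many mice a library holds. By the sex genes above, the 2 libraries of each genotype came from mice of opposite sex. The p-values therefore measure a spread between libraries that cannot be told apart from sex. The fit was tested on simulated data. Annotation was GENCODE M21.

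The members and lists were chosen with earlier results of these data known. Named are all 9 receptors, with each library for pairs that passed in any comparison and for the highest class, and the 10 pathway genes with the largest changes among those that passed. For each receptor the 3 genes most like it were named. One gene of each of the last 2 lists is not reported here. Alternatives were DESeq2, other size factors, no filter, a replicate block, leaving out each library, other gates, kept doublets, at least 500 genes per cell, a fold limit and, added after the data were seen, a gate on a cell's own markers.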

Additional observations from a re-analysis of the deposited data

Results flagged for a closer look

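The change of Flt3 in Y665F against WT differed between classes in a test of the difference itself. Its change in HSC/MPP minus that in GMP was -1.28 on the log2 scale (-0.71 and 0.58), and that in HSC/MPP minus that in early erythroid cells was -1.78 (-0.71 and 1.08). In HSC/MPP the 2 Y665F libraries were below both WT libraries and in GMP above them. Marker sums of the HSC/MPP class moved as well, with neutrophil markers at 24.0 and 55.9 CPM in WT and 237 and 195 in Y665F, and their part in this was not tested. For Csf2rb the change in HSC/MPP minus that in early erythroid cells was -2.44 (1.496 and 3.97), which also passed that test, but its early erythroid pair met the low-count filter of its class through the Y665F libraries alone, so nothing is read from it. All 3 were lost without WT replicate 1 and without Y665F replicate 2. That of Csf2rb, which had 2 UMIs in each WT library in early erythroid cells, was also lost with the replicate block (-2.43, adjusted p 0.0537), and with no filter, other size factors, the stricter gate, doublets kept or at least 500 genes per cell (adjusted p 0.0511 to 0.255).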

How the results depend on the processing

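In Y665F against WT the count of receptor and class pairs that passed moved from 13 to 7 with DESeq2 (3 lost and 3 with no adjusted p), to 21 with the gate on a cell's own markers (added after the data were seen), to 22 with the replicate block, and to between 5 and 18 when 1 library was left out. In Y665H against WT it was 0, and between 0 and 1 without 1 library (Flt3 in monocyte cells, without WT replicate 2, named after its value was seen). Y665F against Y665H gave 17, which became 8 with DESeq2, 10 with the stricter gate and between 4 and 25 without 1 library. Pathway pairs went from 41 to 25 with DESeq2 and to between 21 and 42 without 1 library in Y665F against WT, and from 0 to between 0 and 4 in Y665H against WT. Receptors whose change differed between classes went from 2 to 1 with other size factors, the stricter gate or at least 500 genes per cell, to 6 with Leiden clusters and to between 0 and 4 without 1 library. DESeq2 was not run for this last test. No named result changed its direction. Of the 13 receptor pairs called in Y665F against WT, 11 lost their call without at least 1 library, and with no filter on low counts all 4 of those in GMP did (Csf2rb, Csf2ra, Il3ra and Kit, adjusted p 0.0622 to 0.0971). Csf2rb in early erythroid cells lost it nowhere, but was tested through its Y665F counts alone, so this says nothing of stability. With a log2 fold change over 1 required as well, the calls of Epor and Kit against WT were lost, and that of Kit against Y665H in early erythroid cells. Of the 17 called against Y665H, 3 (Csf2rb, Csf2ra and Flt3 in GMP) kept their call under every alternative, and Csf2rb in lymphoid-primed cells under those that gave a value. Leiden clusters gave no lymphoid-primed or monocyte class, and DESeq2 no adjusted p for 4 of the 17. The cause of these losses was not tested. The highest class was the same for 6 of 9 receptors with Leiden clusters, where Flt3 and Csf1r could not keep theirs for lack of that class. It was the same for 8 or 9 under the other gates and without 1 library.

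The replicate numbers were not taken to pair the libraries. Deviations of same-numbered libraries correlated between -0.260 and 0.293 over 30 checks, so not every pair was over 0.1, and the replicate block, which also separates the sexes, gave 22 pairs in Y665F against WT, 25 against Y665H, 0 in Y665H against WT, 55 pathway pairs and 3 receptors that differed between classes. With the block the class difference of Csf2rb did not pass (-2.43, adjusted p 0.0537), and no other named call was lost. A library left out of a group of 2 leaves a lone library that is assumed to vary like the other groups. Depth limits the small classes, where as few as 50 cells per library (plasmacytoid dendritic) stand behind a sum.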
